A study of Saccharomyces cerevisiae with 4 samples.

Results

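The genes described here are the RPS genes of budding yeast, which encode the proteins of the small subunit of the cytosolic ribosome. They were chosen by name, as features whose standard name is RPS followed by a number with an optional A or B. This rule gave 56 genes of the 7127 features in the count table, and all 56 had counts in every library. They comprised 24 pairs of A and B paralogs, which encode the same or nearly the same protein, and 8 single-copy genes. Together they encode 32 proteins.

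The small subunit binds the mRNA, holds the decoding centre where codons meet tRNAs, and joins the large subunit to form the working ribosome. In yeast most of its proteins come from a pair of gene copies that date from an ancient duplication of the genome. Ribosomal protein genes are among the most strongly transcribed genes of growing yeast. They are activated together through the factors Rap1, Fhl1 and Ifh1, and nutrient signalling through TORC1 and protein kinase A sets their output.

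RNA came from strain BY4742 (MATα, with the alleles his3Δ1, leu2Δ0, lys2Δ0 and ura3Δ0), a haploid laboratory strain related to the reference strain. Cultures growing exponentially in YPD, a rich glucose medium, were given 5 mM of the bile acid conjugate TUDCA (tauroursodeoxycholic acid) for 2 h, or no TUDCA (Ctrl) for the same time. There were 2 libraries in each group, so each mean rests on n = 2, and errors are SDs where no other kind is given. Values of a group are given for replicate 1 and then replicate 2. Whether replicates were grown as separate cultures is not in the labels, so the spread behind each p-value may be technical. The groups share 1 strain and 1 time, TUDCA was given at 1 dose, and no second strain or dose bears on the results.

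Libraries held 74080860 to 97133389 counts, of which the RPS genes took 3343643 to 5937288. The smallest count of a member in a library was 5460 (RPS14B), so counting error is small beside the differences between libraries. In the RPS genes 1 library, Ctrl replicate 2, lay apart: each of the 56 had its highest value there. Results are therefore also given without that library.

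The members lie on 14 chromosomes and are short genes. Their coding length ran from 171 bases (RPS29A and RPS29B) to 786 bases (RPS4A and RPS4B), with a median of 432 bases against 1197 bases over all protein-coding genes. An intron interrupted 36 of the 56 (64.3%), against 4.43% of 6006 protein-coding genes. Their introns had a median of 408.5 bases, and those of the 230 other genes with an intron 116 bases. Both paralogs had an intron in 17 of the 24 pairs, and neither had one in 6. In the RPS22 pair RPS22B had one and RPS22A had none, and the intron of RPS22B holds the small nucleolar RNA gene snR44. Among the 8 single-copy genes only RPS13 had an intron.

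Splicing needs a branch point inside the intron, which in yeast is usually TACTAAC. These letters, searched on the strand that reads like the RNA in the last 150 bases of the intron, were present in 33 of the 36 RPS introns (91.7%) and in 184 of the 230 others (80%). The 3 RPS introns without them were those of RPS9A, RPS9B and RPS21A. The last 80 intron bases are shown for the RPS14 and RPS9 pairs, the most unequal pairs in level, with TACTAAC in capitals where it occurs; all sequences are from the R64 genome, 5′ to 3′.
RPS14A (chrIII:177907-177986, minus strand): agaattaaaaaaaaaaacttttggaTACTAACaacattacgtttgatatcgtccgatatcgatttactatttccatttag
RPS14B (chrX:74125-74204, plus strand): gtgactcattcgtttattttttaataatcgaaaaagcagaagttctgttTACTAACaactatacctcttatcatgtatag
RPS9A (chrXVI:405378-405457, plus strand): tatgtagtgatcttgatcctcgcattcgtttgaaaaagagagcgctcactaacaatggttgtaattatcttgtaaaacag
RPS9B (chrII:604848-604927, plus strand): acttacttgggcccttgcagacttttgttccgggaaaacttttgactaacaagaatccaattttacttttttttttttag

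The 500 bases before each start codon were searched on both strands for ACCCNTNCA, letters of the core of the Rap1 site. A match was present in 19 of the 56 RPS genes (33.9%), in 26 of the 76 RPL genes of the large subunit (34.2%) and in 287 of 6006 protein-coding genes (4.78%). This spelling was chosen after the matches of several were seen, so these shares are not an independent test. The 22 matches in RPS genes began 199 to 498 bases before the start codon, with a median of 341, and 3 genes held a pair of them. In 3 pairs both copies had a match and in 11 pairs 1 copy had one. A match describes letters only, and no match says only that these letters are not in the window. For the 3 pairs with a match in both copies, the 60 bases around the match nearest the start codon are shown, with the match in capitals.
RPS16A (chrXIII:551595-551654, plus strand): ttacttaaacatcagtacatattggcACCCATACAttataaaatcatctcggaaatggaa
RPS16B (chrIV:308118-308177, minus strand): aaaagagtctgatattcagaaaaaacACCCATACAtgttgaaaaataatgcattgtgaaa
RPS23A (chrVII:726683-726742, plus strand): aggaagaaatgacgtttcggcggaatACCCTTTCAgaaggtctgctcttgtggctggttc
RPS23B (chrXVI:794631-794690, plus strand): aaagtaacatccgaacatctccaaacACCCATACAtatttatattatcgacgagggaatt
RPS27A (chrXI:158376-158435, plus strand): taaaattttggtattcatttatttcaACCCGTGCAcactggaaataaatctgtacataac
RPS27B (chrVIII:149059-149118, minus strand): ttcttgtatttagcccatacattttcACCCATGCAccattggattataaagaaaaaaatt
The Fhl1 letters GACGC were in 27 of the 56 (48.2%), in 40.8% of RPL genes and in 30.3% of all protein-coding genes. The letters GATGAG and AAAAATTTT, typical of ribosome assembly genes, were in 21.4% and 5.36% (3 genes) of RPS genes. Their shares were 21.1% and 11.8% in RPL genes, and 28.2% and 9.46% in all protein-coding genes.

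Reads can be assigned to a paralog only where the copies differ. Coding sequences of the 24 pairs were 84.3% (RPS27) to 99.2% (RPS6) identical, and 9 pairs were at least 95% identical. In RPS6, RPS4 and RPS24, among others, the copies share long identical runs: 72.1%, 46.8% and 38.2% of the 50-base windows of A also occur in B. How reads that fit both copies were counted is not given in the sources used here, so levels of such pairs are uncertain. In 9 pairs no 50-base window was shared, and RPS22, RPS28, RPS25 and RPS26 are among them.

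The stretches below show what separates the copies, with the bases that differ in capitals. RPS14, RPS9 and RPS22 are shown as the pairs with the most unequal levels, and RPS29 as the most equal pair, in its whole coding sequence. RPS6 is shown as a pair that reads could often not tell apart. Apart from RPS29, each is the 120-base stretch with the most differences within 1 exon.
RPS14A (chrIII:177773-177892, minus strand): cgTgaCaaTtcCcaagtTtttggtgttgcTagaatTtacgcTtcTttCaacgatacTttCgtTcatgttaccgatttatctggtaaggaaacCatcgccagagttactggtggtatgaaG
RPS14B (chrX:74219-74338, plus strand): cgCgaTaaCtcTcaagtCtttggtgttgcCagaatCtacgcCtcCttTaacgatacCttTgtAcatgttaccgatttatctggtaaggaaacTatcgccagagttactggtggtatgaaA
RPS9A (chrXVI:405586-405705, plus strand): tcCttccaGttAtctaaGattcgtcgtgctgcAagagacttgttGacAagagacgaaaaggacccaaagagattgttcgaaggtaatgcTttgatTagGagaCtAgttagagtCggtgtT
RPS9B (chrII:605056-605175, plus strand): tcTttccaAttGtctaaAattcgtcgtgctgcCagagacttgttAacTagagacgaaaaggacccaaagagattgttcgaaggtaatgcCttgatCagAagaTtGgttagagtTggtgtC
RPS22A (chrX:75183-75302, minus strand): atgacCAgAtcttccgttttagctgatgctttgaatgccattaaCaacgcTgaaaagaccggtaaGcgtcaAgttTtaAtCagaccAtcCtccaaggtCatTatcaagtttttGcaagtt
RPS22B (chrXII:856442-856561, plus strand): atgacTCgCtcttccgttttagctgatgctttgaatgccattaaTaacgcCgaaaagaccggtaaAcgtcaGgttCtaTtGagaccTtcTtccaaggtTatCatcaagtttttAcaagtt
RPS29A (chrXII:898651-898821, plus strand): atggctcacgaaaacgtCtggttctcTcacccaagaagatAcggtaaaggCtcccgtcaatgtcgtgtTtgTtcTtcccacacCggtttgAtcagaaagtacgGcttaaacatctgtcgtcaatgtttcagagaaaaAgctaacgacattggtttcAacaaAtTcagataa
RPS29B (chrIV:340628-340798, minus strand): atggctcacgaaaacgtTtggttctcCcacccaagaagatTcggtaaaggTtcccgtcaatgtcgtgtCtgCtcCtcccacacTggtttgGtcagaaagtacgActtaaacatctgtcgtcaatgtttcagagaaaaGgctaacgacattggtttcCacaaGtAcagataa
RPS6A (chrXVI:377861-377980, minus strand): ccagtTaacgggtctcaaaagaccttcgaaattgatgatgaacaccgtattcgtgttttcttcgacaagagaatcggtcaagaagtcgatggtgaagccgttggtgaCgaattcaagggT
RPS6B (chrII:592282-592401, minus strand): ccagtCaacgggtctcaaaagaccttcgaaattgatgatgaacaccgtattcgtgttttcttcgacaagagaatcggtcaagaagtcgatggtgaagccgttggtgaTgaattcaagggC
The RPS14, RPS9 and RPS22 stretches differed at 15, 14 and 15 of 120 bases, and the RPS29 genes at 14 of 171. The 120-base stretch of RPS6 held 3 differences.

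RPS genes were among the most abundant mRNAs in all libraries. Levels were compared between genes as CPM per kb, that is, counts as CPM, relative to the library total scaled by its TMM factor (trimmed mean of M-values, which adjusts for library composition), and divided by coding length. The median member was at 1809 CPM per kb over the 4 libraries, against 47.7 over the 6420 genes tested. The lowest member was still above 83.9% of them.

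RPS20, a protein of the subunit's head, had the highest level, with 5452 and 5900 CPM per kb in the TUDCA libraries, against 6087 and 8816 CPM per kb in the Ctrl libraries. RPS31, which is made as a fusion of ubiquitin to a ribosomal protein, had 4763 and 5196 CPM per kb in the TUDCA libraries, against 5455 and 7036 CPM per kb in the Ctrl libraries. RPS30A had 4895 and 4949 CPM per kb in the TUDCA libraries, against 5568 and 6247 CPM per kb in the Ctrl libraries. These 3 genes stood above the rest, since the next was RPS14A with a mean of 3624 CPM per kb.

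The 3 lowest members were all the minor copies of their pairs. RPS9A encodes a protein that affects the accuracy of decoding and had 153 and 164 CPM per kb in the TUDCA libraries, against 163 and 229 CPM per kb in the Ctrl libraries. RPS14B encodes a protein of the subunit's platform and had 172 and 166 CPM per kb in the TUDCA libraries, against 181 and 223 CPM per kb in the Ctrl libraries. RPS22B had 309 and 317 CPM per kb in the TUDCA libraries, against 365 and 476 CPM per kb in the Ctrl libraries. In each of these 3 Ctrl replicate 2 was the highest library. RPS9A and RPS14B did not differ beyond their spread over libraries, and RPS22B lay above both in every library.

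Each small subunit holds 1 copy of each protein, and the summed level of a pair was closer to the level of the single-copy genes than the separate paralogs were. The 56 genes spanned 37.1-fold from lowest to highest mean level, and the 32 sums per protein spanned 4.08-fold. Paralogs had a median of 1766 CPM per kb, pair sums 3379 and the 8 single-copy genes 2950. The highest sum was that of RPS30 (7051 CPM per kb) and the lowest that of single-copy RPS2 (1728 CPM per kb). For RPS2 a feature on the other strand, YGL123C-A, covered 30.2% of the coding length and had 0 counts in all libraries. Whether reads from the covered stretch were counted for RPS2 is not given in the sources used here. Its place as the lowest, and with it the 4.08-fold span, is therefore uncertain. RPS27A, as given with its pair, also has a covered stretch, and no other member does.

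**Figure D1:**
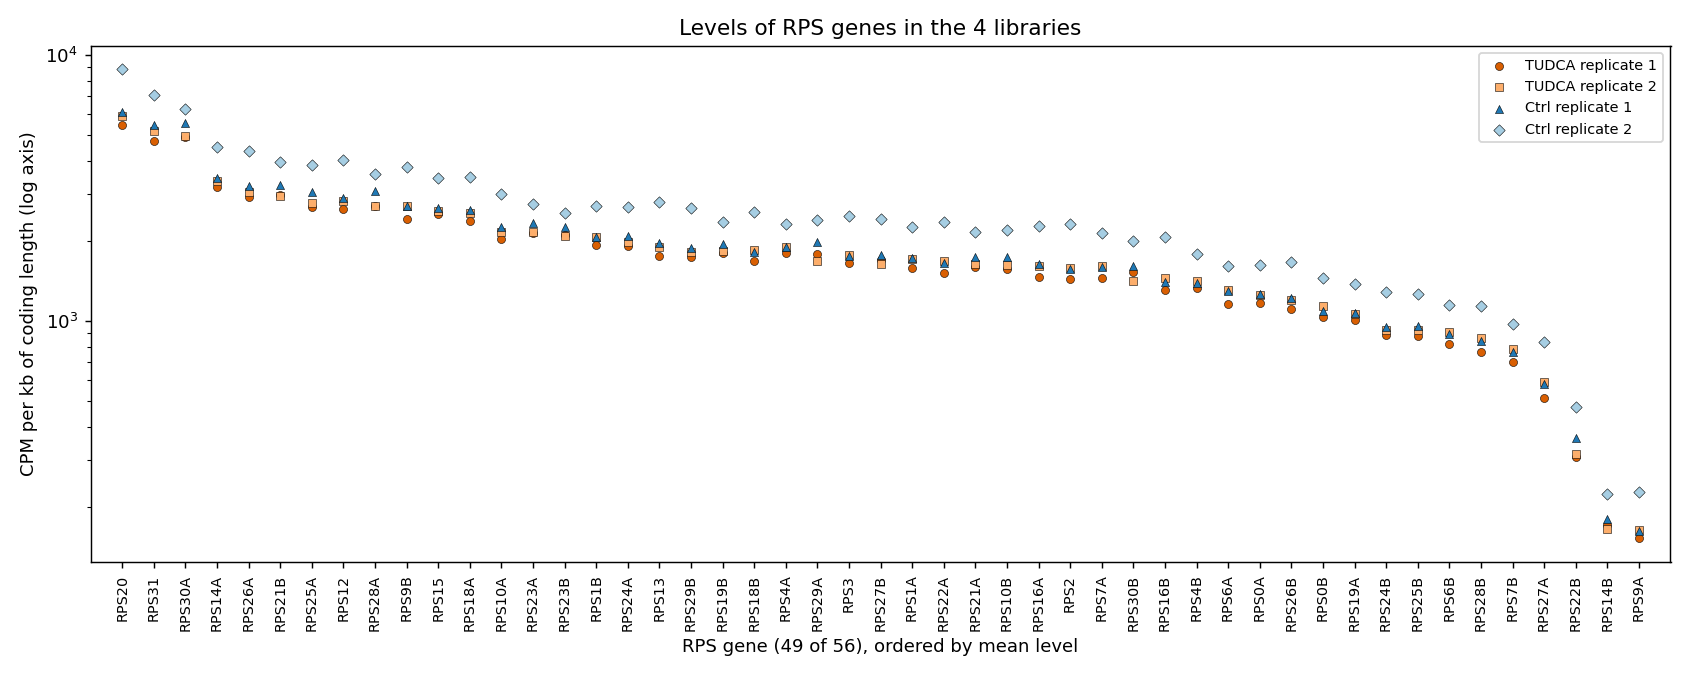
Levels of 49 RPS genes in CPM per kb of coding length (log axis), with 1 symbol per library. Ctrl replicate 2 is the highest library for every gene shown, and RPS22B, RPS14B and RPS9A lie below the rest, at means of 367, 185 and 177 CPM per kb.

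Comparing TUDCA with Ctrl asks how the bile acid changes the transcriptome, here of the small subunit genes. All 56 RPS genes had fitted values below 0 in TUDCA, with a median log2 fold change of -0.30 and the most negative value, -0.43, in RPS22B. None passed the test, and the median gap between the 2 Ctrl libraries was larger than that between the groups. That gap is between single libraries and the group value between means of 2, so these sizes are not like for like. The median over all genes tested was -0.0037, and 51% of them had fitted values below 0. In bulk RNA, fewer cells rich in these mRNAs and less of them in each cell cannot be told apart.

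With edgeR's quasi-likelihood test and Benjamini-Hochberg adjustment over 6420 genes, 0 RPS genes had an adjusted p under 0.05, where 0.0935% of all genes did in either direction and 0.0623% were lower. Adjusted p ran from 0.544 to 0.580. DESeq2 also called 0 RPS genes, with 0.452% of all genes called lower, and limma-voom 0, with 0.0623%. Without the filter on low counts edgeR called 0 RPS genes, with 0.0729% of all genes called lower. At an unadjusted p under 0.05, 8 of the 56 were lower, against 4.56% of all genes tested. They were RPS22B, RPS29A, RPS28A, RPS25A, RPS30B, RPS30A, RPS14B and RPS10B, with coding lengths of 171 to 417 bases.

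In 38 of the 56 the groups did not overlap and TUDCA was the lower one, as in 23.9% of all genes tested. TUDCA was the higher one in 0 of the 56, against 23.7% of all genes tested. In the other 18 the groups overlapped because TUDCA replicate 2 exceeded Ctrl replicate 1. The lowest library was TUDCA replicate 1 in 49 genes and TUDCA replicate 2 in 7. Genes of 1 regulon share the same 4 libraries and move together, so these counts are not those of independent genes.

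RPS genes took 4.46% and 4.72% of the counts in the TUDCA libraries, against 4.77% and 6.11% in the Ctrl libraries. The groups did not overlap, but Ctrl replicate 2 was far from the other 3 libraries. The means were 4.59% ± 0.185 in TUDCA and 5.44% ± 0.946 in Ctrl (SD, n = 2 each), a difference of -0.852 percentage points. A two-sided exact permutation test gave p = 0.33, the smallest that 2 against 2 libraries allow. The difference was -0.183 percentage points without Ctrl replicate 2 and -1.52 without Ctrl replicate 1.

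Every RPS gene had more CPM in Ctrl replicate 2 than in the other Ctrl library, by a log2 ratio of 0.17 (RPS30A) to 0.56 (RPS16B) with a median of 0.39. TUDCA replicate 2 over TUDCA replicate 1 had a median of 0.099, with 49 genes above 0. Against Ctrl replicate 1 alone, the mean of the TUDCA libraries was lower in all 56, by a median log2 ratio of -0.081. In edgeR's fit the median of the RPS genes was -0.079 without Ctrl replicate 2, with 0 genes called lower at an adjusted p under 0.05, where 0.295% of all genes were. Without Ctrl replicate 1 it was -0.46, and 56 of 56 were called lower, where 13.4% of all genes were. With either TUDCA library left out, the count was 0, where 0.0772% (without TUDCA replicate 1) and 0.155% (without TUDCA replicate 2) of all genes were called lower.

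**Figure D2:**
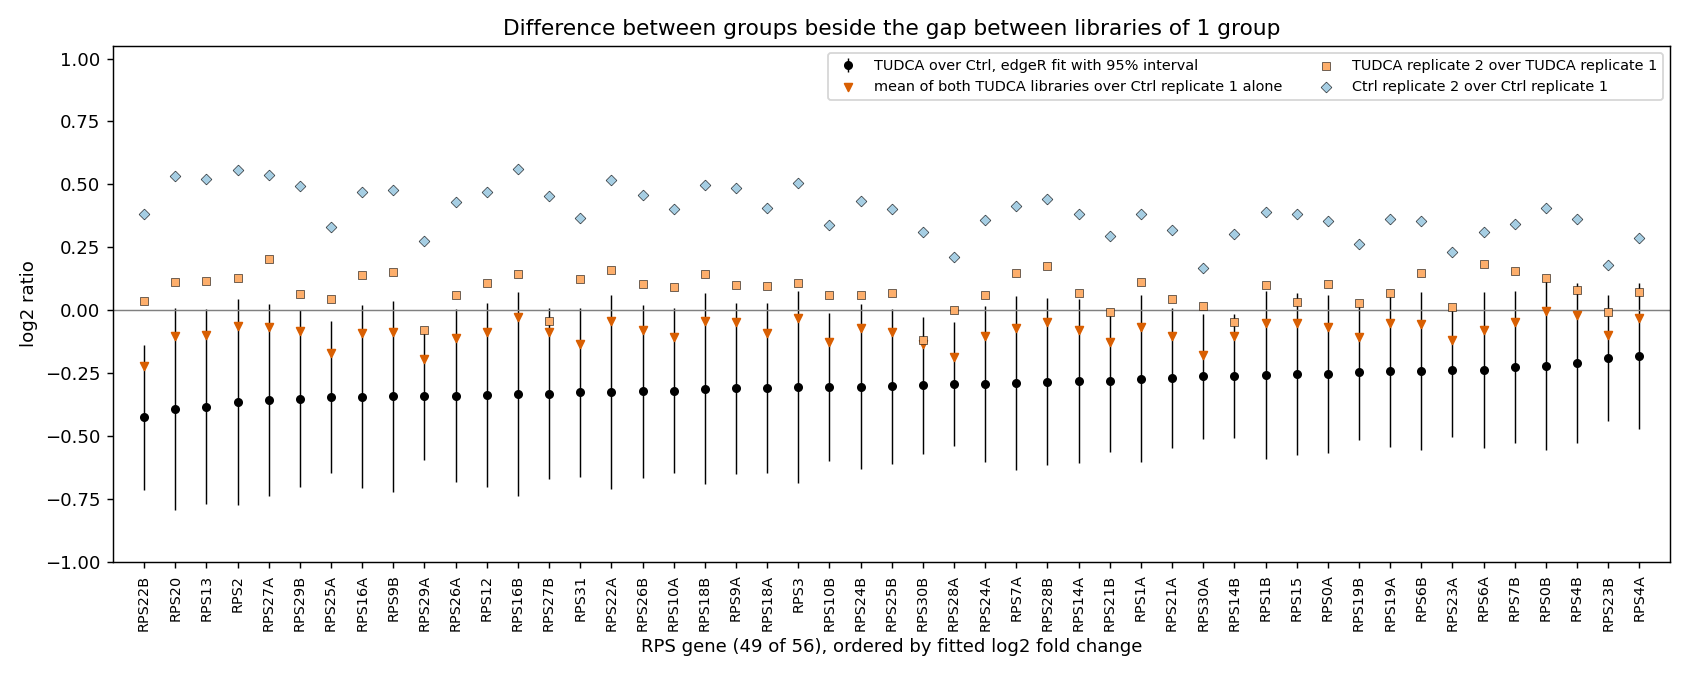
Log2 ratios of 49 RPS genes, ordered by the fitted log2 fold change of TUDCA over Ctrl, which is shown with its 95% interval. The fitted values shown run from -0.43 to -0.18, while Ctrl replicate 2 lies 0.17 to 0.56 above Ctrl replicate 1 and the TUDCA mean lies within 0.22 below it.

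The single-copy genes, which have no paralog to share reads with, are given first. RPS3 (YNL178W, chrXIV:302680-303402, plus strand), a protein at the mRNA entry site, had 1194 and 1285 CPM in the TUDCA libraries, against 1266 and 1796 CPM in the Ctrl libraries. RPS2 (YGL123W, chrVII:277617-278381, plus strand), its neighbour there, had 1103 and 1207 CPM in the TUDCA libraries, against 1205 and 1772 CPM in the Ctrl libraries. In both, the TUDCA replicate 2 value lay slightly above that of Ctrl replicate 1, so the groups overlapped. The log2 fold change was -0.31 (95% interval -0.69 to 0.077) for RPS3 and -0.37 (-0.77 to 0.043) for RPS2, and without Ctrl replicate 2 these were -0.029 and -0.059.

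RPS15 (YOL040C, chrXV:253149-253577, minus strand), a protein of the head close to the decoding site, had 1087 and 1111 CPM in the TUDCA libraries, against 1137 and 1483 CPM in the Ctrl libraries. The groups did not overlap, but the distance between TUDCA replicate 2 and Ctrl replicate 1 was small beside that between the Ctrl libraries. The log2 fold change of RPS15 was -0.25 (-0.58 to 0.069), and -0.047 without Ctrl replicate 2.

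RPS20 (YHL015W, chrVIII:75412-75777, plus strand) had 1996 and 2159 CPM in the TUDCA libraries, against 2228 and 3227 CPM in the Ctrl libraries. RPS13 (YDR064W, chrIV:579458-580452, plus strand), the single-copy gene with an intron, had 799.6 and 866 CPM in the TUDCA libraries, against 892 and 1280 CPM in the Ctrl libraries. Both had all TUDCA values below the Ctrl values, and most of the distance came from Ctrl replicate 2. They had the most negative fitted values after RPS22B (log2 fold change -0.39, SE 0.17, edgeR adjusted p = 0.544, and -0.38, SE 0.17, edgeR adjusted p = 0.544), and were at -0.099 and -0.097 without Ctrl replicate 2.

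RPS31 (YLR167W, chrXII:498947-499405, plus strand), the ubiquitin fusion, had 2186 and 2385 CPM in the TUDCA libraries, against 2504 and 3229 CPM in the Ctrl libraries. RPS12 (YOR369C, chrXV:1028194-1028625, minus strand), a protein of the beak of the subunit, had 1137 and 1224 CPM in the TUDCA libraries, against 1252 and 1733 CPM in the Ctrl libraries. The groups did not overlap in either gene. The log2 fold changes were -0.33 (-0.66 to 0.0069) and -0.34 (-0.70 to 0.029), and without Ctrl replicate 2 -0.13 and -0.082.

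RPS22B (YLR367W, chrXII:856442-857317, plus strand) had the smallest p of the RPS genes and 121 and 125 CPM in the TUDCA libraries, against 143 and 187 CPM in the Ctrl libraries. All TUDCA values lay below the Ctrl values, by more than the TUDCA libraries differed from each other (log2 fold change -0.43, SE 0.12, edgeR adjusted p = 0.544). Its log2 fold change was -0.22 without Ctrl replicate 2 and -0.59 without Ctrl replicate 1, each against a single Ctrl library. RPS22B had the most negative value of the 56 without Ctrl replicate 2.

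The genes with the next smallest p were short. RPS29A (YLR388W, chrXII:898651-898821, plus strand), which encodes a zinc-binding protein of the head, had 304 and 288 CPM in the TUDCA libraries, against 339 and 411 CPM in the Ctrl libraries. RPS28A (YOR167C, chrXV:648804-649007, minus strand), whose paralog RPS28B is known to limit its own mRNA, had 553 and 552 CPM in the TUDCA libraries, against 628 and 727 CPM in the Ctrl libraries. RPS25A (YGR027C, chrVII:534132-534458, minus strand), which viral internal ribosome entry sites need, had 878 and 906 CPM in the TUDCA libraries, against 1003 and 1262 CPM in the Ctrl libraries. In these 3 both TUDCA libraries were close together and below Ctrl replicate 1, with Ctrl replicate 2 highest.

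Their log2 fold changes were -0.34 (SE 0.11), -0.29 (SE 0.11) and -0.34 (SE 0.13), each with an edgeR adjusted p of 0.544. Without Ctrl replicate 2 they were -0.19, -0.18 and -0.17. RPS30B (YOR182C, chrXV:678191-678793, minus strand) had 293 and 270.4 CPM in the TUDCA libraries, against 309.5 and 384 CPM in the Ctrl libraries, and RPS30A (YLR287C-A, chrXII:712537-713158, minus strand) had 939.8 and 950.2 CPM in the TUDCA libraries, against 1069 and 1199 CPM in the Ctrl libraries. Groups did not overlap in these 2 genes, whose log2 fold changes were -0.30 and -0.26, and -0.13 and -0.18 without Ctrl replicate 2.

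RPS4A and RPS23B were among the members with the least negative fitted values. RPS4A (YJR145C, chrX:702027-703068, minus strand) had 1417 and 1491 CPM in the TUDCA libraries, against 1487 and 1812 CPM in the Ctrl libraries. RPS23B (YPR132W, chrXVI:794965-795767, plus strand), whose protein sits at the decoding centre, had 923 and 918 CPM in the TUDCA libraries, against 985 and 1115 CPM in the Ctrl libraries. The groups overlapped in RPS4A and not in RPS23B. Their log2 fold changes were -0.18 (-0.47 to 0.11) and -0.19 (-0.44 to 0.06), and without Ctrl replicate 2 they were -0.03 and -0.095. Reads of RPS4A could in large part also fit its paralog.

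The fitted values varied little among members, with an SD of 0.054 against 0.21 over all genes tested. Of the lists described below, the SD was also small in the RPL genes (0.065), initiation factor genes (0.066) and mitochondrial small subunit genes (0.079). It was larger in the assembly genes (0.14) and in the regulators of ribosomal protein genes (0.14). A small spread was thus not particular to the RPS genes. The median SE of a member was 0.14. Members with an intron had a median of -0.29 and those without -0.31. Members with a Rap1 match had -0.30 and those without -0.30. A paralogs and B paralogs were both at -0.29, and the single-copy genes at -0.33. These differences were not tested.

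Across the 56 genes, the gap between the Ctrl libraries and that between the TUDCA libraries, which share no library, correlated at r = 0.57. Genes are not independent replicates. The log2 of coding length correlated with the Ctrl gap at r = 0.16 and with the TUDCA gap at r = 0.50. The 10 members under 300 bases had a median TUDCA replicate 2 over replicate 1 of 0.00749 (log2) and the other 46 of 0.10. Over the Ctrl libraries these medians were 0.31 and 0.40. The part of length in these gaps was not tested. With a trend on length and GC content removed from each library, the median log2 fold change of the RPS genes was -0.21.

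Which copy of a pair supplied most of the mRNA differed from pair to pair and hardly between libraries. The A gene was the higher copy in 17 pairs and the B gene in 7, compared per kb of coding length. The higher copy exceeded the lower by 1.02-fold (RPS29) to 19.5-fold (RPS14), with a median of 1.80-fold. The ratio was above 2-fold in 11 pairs and under 1.5-fold in 10. The higher copy was the same in all 4 libraries for 23 of the 24 pairs, RPS29 being the exception.

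Of the summed level of its pair, RPS14A provided 94.9% and 95.3% in the TUDCA libraries, against 95.02% and 95.3% in the Ctrl libraries. Rps14 protein is known to repress the splicing of RPS14B mRNA. RPS9A provided 5.92% and 5.73% in the TUDCA libraries, against 5.68% and 5.70% in the Ctrl libraries, so that RPS9B was 16.4-fold higher. RPS22A provided 83.04% and 84.2% in the TUDCA libraries, against 81.9% and 83.2% in the Ctrl libraries. The minor copies of these 3 pairs were the 3 lowest members in level, and the RPS22 copies shared no 50-base window.

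RPS28A provided 77.98% and 75.8% in the TUDCA libraries, against 78.5% and 75.7% in the Ctrl libraries. RPS30A provided 76.2% and 77.8% in the TUDCA libraries, against 77.5% and 75.8% in the Ctrl libraries. RPS25A provided 75.3% and 75.04% in the TUDCA libraries, against 76.2% and 75.3% in the Ctrl libraries. In RPS28 and RPS30 the groups overlapped, and in RPS25 both TUDCA shares lay just below the Ctrl shares. RPS26A, which encodes a protein at the mRNA exit that can leave the subunit under stress, provided 72.5% and 71.8% in the TUDCA libraries, against 72.6% and 72.2% in the Ctrl libraries.

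Other pairs were close to even. RPS29A provided 50.6% and 48.1% in the TUDCA libraries, against 51.3% and 47.6% in the Ctrl libraries, and its share was lower in replicate 2 of both groups. RPS23A provided 50.4% and 50.8% in the TUDCA libraries, against 51.0% and 51.9% in the Ctrl libraries, RPS16A 52.8% and 52.7% in the TUDCA libraries, against 53.8% and 52.3% in the Ctrl libraries, and RPS0A 52.9% and 52.4% in the TUDCA libraries, against 53.7% and 52.8% in the Ctrl libraries. In RPS23 and RPS16 the Ctrl and TUDCA shares lay within 2 percentage points of each other. The RPS27 pair shows a limit of the counting: RPS27B was 3.002-fold above RPS27A, but the feature YKL156C-A covered 47.0% of RPS27A and had 0 counts. Divided by the uncovered length alone, the ratio was 1.59-fold.

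**Figure D3:**
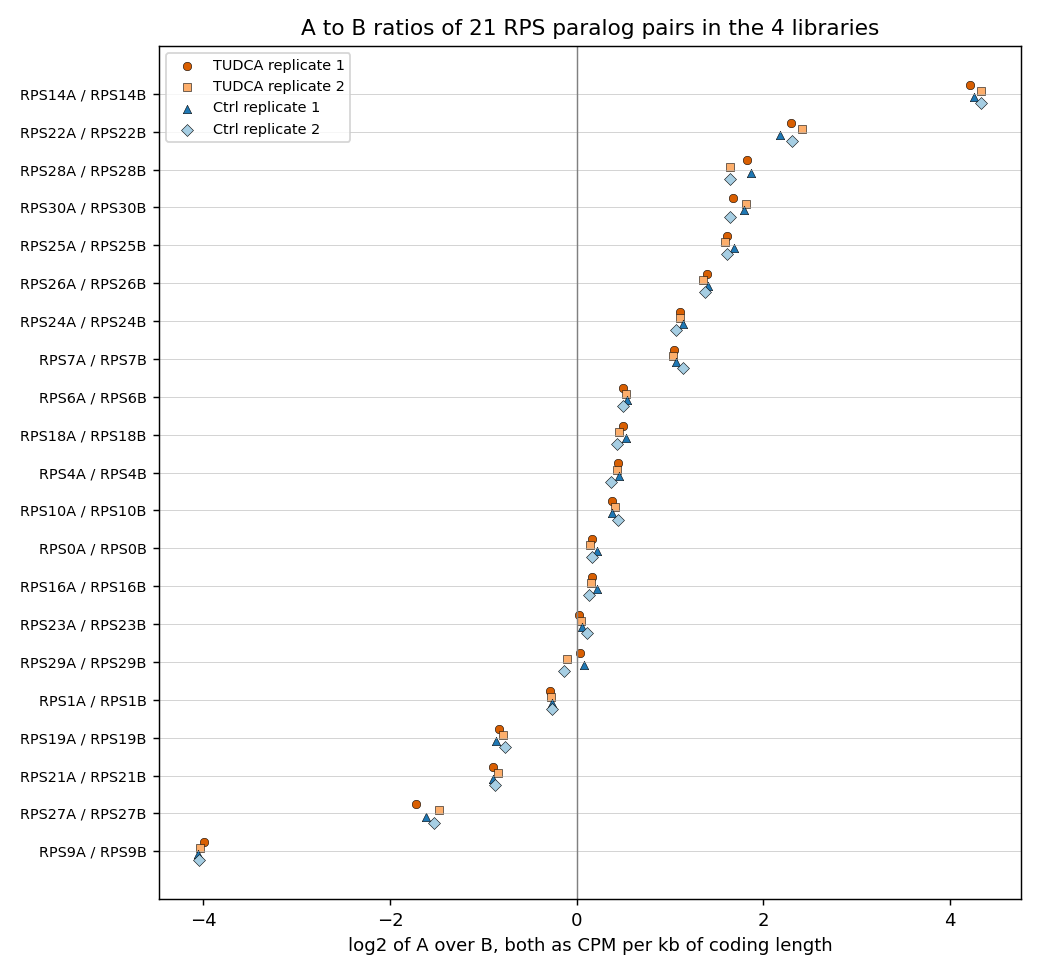
Log2 of the A over the B level, both in CPM per kb, for 21 pairs, with 1 symbol per library; values above 0 mean a higher A copy. Pairs spread from -4.03 (RPS9) to 4.29 (RPS14), while a pair's libraries lie within 0.25 of each other.

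The A to B ratio does not depend on library scaling, since both copies are read in the same library. All 24 pairs were compared between TUDCA and Ctrl. The difference of the mean log2 ratio had a median size of 0.022, and the largest was that of RPS22, at 0.11. It was above 0 in 9 pairs and below 0 in 15. This ratio differed between the Ctrl libraries by a median size of 0.078 and between the TUDCA libraries by a median of 0.044. Both exceeded the difference between the groups, but a gap between single libraries tends to exceed a difference of means. A two-sided exact permutation test cannot go below p = 0.33 with 2 libraries against 2, and no pair reached a lower value.

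The groups did not overlap in 5 pairs, RPS9 with TUDCA higher and RPS1, RPS7, RPS23 and RPS25 with TUDCA lower. Of the ways to order 2 libraries against 2, a share of 0.33 gives no overlap. In CPM, 23.9% of all genes tested had TUDCA lower with no overlap and 23.7% had TUDCA higher. These 5 pairs are therefore not read as a change. Of the RPS9 pair, the log2 ratio was -3.99 and -4.04 in the TUDCA libraries, against -4.05 and -4.05 in the Ctrl libraries, a difference of 0.035 (SE 0.025). For RPS25 it was 1.61 and 1.59 in the TUDCA libraries, against 1.68 and 1.61 in the Ctrl libraries, a difference of -0.046 (SE 0.036). For RPS23 the difference was -0.047 (SE 0.028), for RPS7 -0.057 (SE 0.037) and for RPS1 -0.014 (SE 0.0062). All 5 differences are smaller than 0.1 on the log2 scale.

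In the RPS22 pair the groups overlapped. Its log2 ratio was 2.29 and 2.41 in the TUDCA libraries, against 2.17 and 2.31 in the Ctrl libraries, a difference of 0.11 (SE 0.09), with the smaller value in replicate 1 of each group.

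The 76 RPL genes, which encode the proteins of the large subunit, had a median log2 fold change of -0.29, with 0 called and 76 below 0, and TUDCA was lower with no overlap in 46, as in 23.9% of all genes tested. Without Ctrl replicate 2 that median was -0.06. Their CPM was 0.43 (log2 median) higher in Ctrl replicate 2 than in the other Ctrl library. The median deviation of RPS genes minus that of RPL genes was -0.00772 and -0.00705 in the TUDCA libraries, against 0.0133 and -0.0236 in the Ctrl libraries (log2). The difference of group means was -0.00223 (two-sided exact permutation p = 1, smallest possible 0.33). RPS genes made up 48.0% to 48.3% of the summed RPS and RPL counts in every library.

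The 5 acidic stalk genes (RPP0, RPP1A, RPP1B, RPP2A and RPP2B), which recruit elongation factors to the large subunit, had a median of -0.31 with 0 called. RPP1A had the smallest p, at -0.34 (edgeR adjusted p = 0.544), and RPP2B was at -0.28. ASC1, the scaffold protein on the head of the small subunit, was at -0.31 (edgeR adjusted p = 0.544). STM1, a protein that clamps idle ribosomes, was at -0.23 (edgeR adjusted p = 0.545).

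Lists of genes that act on the small subunit without being part of it had medians nearer 0. Of 28 genes of its assembly and export, 0 were called, 4 were lower at an unadjusted p under 0.05, as were 4.56% of all genes tested, and the median was -0.088. The smallest p were those of TSR2, which escorts Rps26 protein, at -0.32 (edgeR adjusted p = 0.544), and PNO1, a factor of late maturation, at -0.33 (edgeR adjusted p = 0.544). Of 8 measured chaperones and modifiers of RPS proteins, a list that also holds TSR2, 0 were called and the median was -0.084. The arginine methyltransferase gene HMT1 was at -0.26 (edgeR adjusted p = 0.544). TUDCA was lower with no overlap in 16 of the 28 assembly genes and in 5 of these 8, against 23.9% of all genes tested.

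The 14 initiation factor genes that act on the small subunit had 0 called and a median of -0.025. SUI3, the beta subunit of eIF2, was at -0.15 (edgeR adjusted p = 0.576) and TIF11, which encodes eIF1A, at -0.12 (adjusted p = 0.630). The 20 mitochondrial small subunit genes named MRPS or RSM plus a number had 0 called and a median of -0.0029. RSM22 had the smallest p among them, at 0.24 (edgeR adjusted p = 0.544), followed by RSM7 at -0.13 (adjusted p = 0.588).

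Of 21 genes that regulate ribosomal protein genes, 0 were called and the median was 0.069, with 15 above 0 and 6 below. TUDCA was higher with no overlap in 9 and lower in 3, against 23.7% and 23.9% of all genes tested. TOD6, a repressor of ribosome genes, had 20.4 and 21.6 CPM in the TUDCA libraries, against 23.4 and 30.6 CPM in the Ctrl libraries (log2 fold change -0.36, edgeR adjusted p = 0.544). TOR2, a kinase subunit of the TOR complexes, was at 0.18 (edgeR adjusted p = 0.544). TOD6 was highest in Ctrl replicate 2, as the RPS genes were, and TOR2 lowest there.

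**Figure D4:**
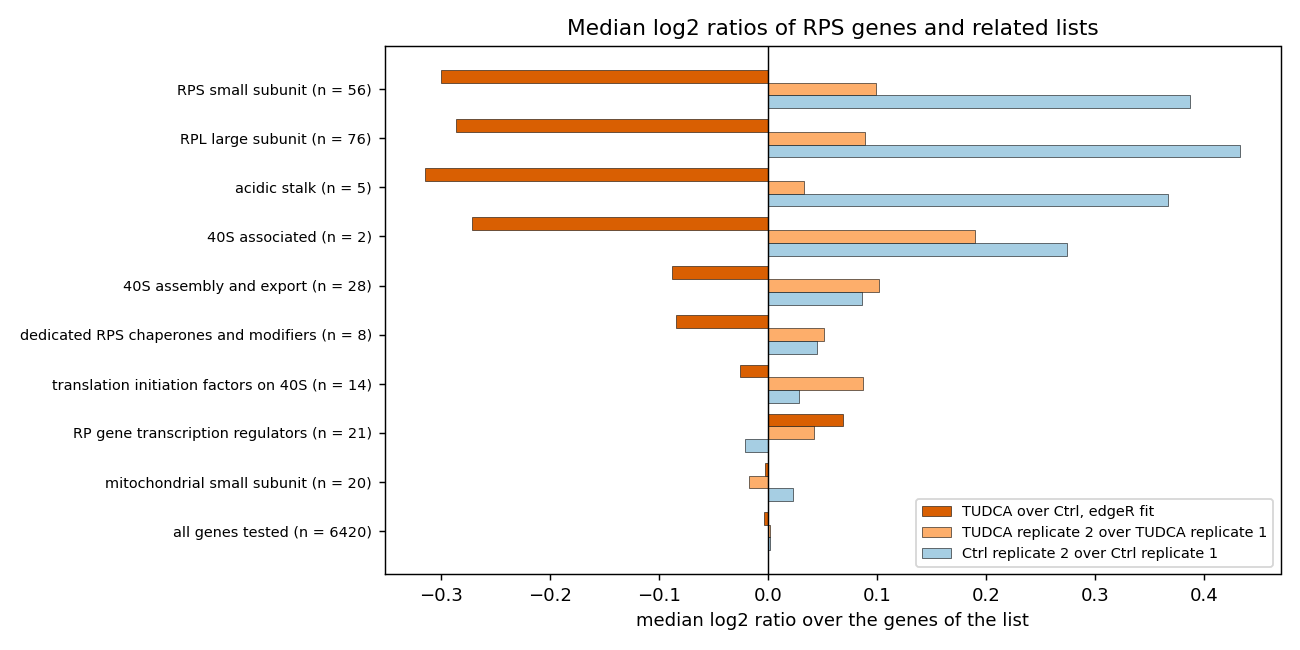
Median log2 ratios of the RPS genes and related lists, as bars from 0. The RPS bar for TUDCA over Ctrl reaches -0.30 and its bar for Ctrl replicate 2 over Ctrl replicate 1 reaches 0.39. The RPL, stalk and subunit-associated lists have bars in the same directions. So do the assembly, chaperone and initiation factor lists, whose TUDCA over Ctrl bars are shorter (-0.088, -0.084 and -0.025). The mitochondrial bars for these ratios reach -0.0029 for TUDCA over Ctrl and 0.022 for Ctrl replicate 2 over Ctrl replicate 1. The regulator bars point the other way, reaching 0.069 for TUDCA over Ctrl and -0.021 for Ctrl replicate 2 over Ctrl replicate 1.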

How the data were processed

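RNA-seq libraries of 2 TUDCA and 2 Ctrl samples were stranded and poly(A)-selected, per the labels' protocols. Groups come from the titles: the treatment text names 5 mM TUDCA for all 4 samples, Ctrl included, and the growth text says that cultures were kept with or without it. Per the submitters' processing notes, STAR 2.5.4b, featureCounts 1.6.0, DESeq2 1.26.0 and build R64 were used; multimapping and strand settings are not given in the sources used here. The deposited counts are raw reads per feature. A second table, of signal values that the authors scaled, equals the counts over 1 constant per library. Locus tags were named with the RefSeq R64 gene table, whose coordinates matched for all 56 members.

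The analysis used edgeR 4.0.16 (R 4.3.3). Of the features, filterByExpr with a minimum count of 10 kept 6420 genes, TMM factors scaled libraries, and a quasi-likelihood F test used the group alone, with adjusted p under 0.05 called. DESeq2 1.42.0, limma 3.58.1, other scalings, other filters and left-out libraries were alternatives, and the edgeR test was tested on simulated data. Paralog coding sequences were aligned globally with Biopython 1.88. The spelling of the Rap1 site was chosen after the matches of several spellings were seen.

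The members and lists were chosen with earlier results of these data known. Named members were those with the 6 smallest p, the 3 most and 3 least negative fold changes, the 3 highest and 3 lowest levels, the 4 most and least equal pairs, the 4 largest ratio differences and a fixed set (the 8 single-copy genes and the pairs RPS9, RPS14, RPS22, RPS25 and RPS26); RPS10B and RPS14B at an unadjusted p under 0.05, the other pairs whose groups did not overlap, and RPS27 were named after their values were seen. From other lists the 2 smallest p were named. Some members and pairs that these rules name are not reported here by name, and counts and medians over all members include them. Depth was 74080860 to 97133389 counts.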

Additional observations from a re-analysis of the deposited data

How the results depend on the processing

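The count of RPS genes called lower was 0 in edgeR's test and under 11 of the 13 other settings tried. It was 21 with the replicate number as a block, where 2.52% of all genes were called lower. It was also above 0 without Ctrl replicate 1, where the Ctrl group is a single library and its spread is not measured. No setting called an RPS gene higher. Over all genes, 2 were higher and 4 lower. DESeq2 called 30 higher and 29 lower, upper-quartile scaling 1 higher, and the replicate block 191 higher and 162 lower. Leaving out 1 library gave 2 to 1139 higher and 5 to 871 lower, the largest counts without Ctrl replicate 1. The same-numbered libraries of the groups deviated together at r = 0.18 over all genes and 0.57 over the RPS genes, but 2 pairs cannot show that numbers pair the samples, so the block is an alternative only.

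The median log2 fold change of the RPS genes stayed between -0.35 and -0.21 under other tests, scalings, filters, the block and the length and GC trend, and between -0.46 and -0.079 when 1 library was left out. All 56 stayed below 0 in every setting run. RPS genes lower at an unadjusted p under 0.05 numbered 8, against 4.56% of all genes tested. With the share of all genes in parentheses, they numbered 41 in DESeq2 (5.37%), 19 with upper-quartile scaling (7.10%), 4 with library totals only (2.57%), 18 without the filter (4.75%), 51 with the block (8.75%) and 2 with the length and GC trend removed (3.83%). For fits with 1 library left out, which hold a single library in 1 group, this number is not given. For the share of counts, the RPS minus RPL median and the A to B ratios, no alternative moved the difference by more than 1 SD between replicates. With 2 libraries per group, leaving 1 out cannot move a difference of means by more than the SD pooled over both groups. Left-out libraries could therefore not fail this limit, although the share difference ran from -0.183 to -1.52 percentage points. The pairwise mean with the replicate block equals the difference of means by construction (-0.852 percentage points for the share). Library scaling cancels in the A to B ratios, so the deposited scaled values also give the same ratios by construction.

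With 2 libraries per group, the exact tests cannot pass 0.05, and edgeR's test has 2 residual degrees of freedom. Depth does not limit the levels of these genes. The part of counting error in the small differences of the A to B ratios was not tested.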

Other observations

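Stress and glucose genes, which respond to growth state in yeast, were read as a further list beside the RPS genes. Of 13 members 0 were called, 3 were higher in TUDCA at an unadjusted p under 0.05, as were 3.75% of all genes tested, and the median log2 fold change was 0.02. The low-affinity glucose transporter gene HXT3 had 619.8 and 733 CPM in the TUDCA libraries, against 459 and 454 CPM in the Ctrl libraries (log2 fold change 0.57, edgeR adjusted p = 0.235). HXT1, a related transporter gene, was at 0.46 (edgeR adjusted p = 0.492). The Ctrl libraries were close together for HXT3, unlike for the RPS genes. The list's median lay 0.1 lower in Ctrl replicate 2 than in the other Ctrl library and 0.17 lower in TUDCA replicate 2 than in TUDCA replicate 1 (log2), opposite in sign to the RPS medians.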
